A study of Mus musculus with 6 samples.

Results

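Chemokines are small secreted proteins that attract leukocytes, and their receptors are membrane proteins with 7 transmembrane helices that couple to inhibitory G proteins. Here 42 of these genes, 30 ligands and 12 receptors, were followed in spleens of mice after total body irradiation. They were chosen by symbol: a member is a gene whose listed symbol stands as the gene name of at least 1 probe on the array, and all 42 had one, out of 34741 genes with a probe. Of the 42, 35 passed the background filter described below and were tested, 24 ligands and 11 receptors.

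The 6 arrays measured RNA of whole spleen homogenised as total splenocytes from congenic mice, strain B10.BALB-16.C2A, whose age and sex are not given. In 1 group the mice had received 900 cGy to the whole body from an XRAD320 irradiator 24 h before harvest, and in the other they were resting mice at 0 cGy; no other treatment is labelled. Each group had 3 arrays, each with RNA pooled from 3 mice, and it is not stated whether the pools of a group held different mice, so that the p-values measure the spread between arrays. A level is the log2 signal after subtracting the log2 of the 75th percentile over non-control spots of that array, so that a difference of 1 is a doubling. For a gene to be tested, its brightest probe had to be called well above background by the scanner software throughout 1 or both groups. Levels of different genes come from different probes and are not compared with each other.

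As background, chemokines bind the glycosaminoglycans of vessel walls and matrix, and gradients of them guide cells that carry the fitting receptor. Inflammatory chemokines such as CCL2 or CXCL1 are made on demand by macrophages, stroma and endothelium and draw monocytes or neutrophils, while homeostatic ones such as CXCL12 are made steadily by stromal cells and hold leukocytes in place. In the spleen, receptors such as CCR6 sit mainly on lymphocytes, CCR2 on monocytes and CXCR3 on activated T and NK cells. Atypical receptors such as CXCR7, now named ACKR3, bind chemokines and remove them without G protein signalling.

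Ligand genes rose with irradiation and receptor genes split. Of the 24 ligands tested, 21 rose, none fell and 3 did not pass the threshold of an adjusted p under 0.05, and the median log2 change was 1.56. Of the 11 receptors tested, 3 rose, 4 fell and 4 did not pass, with a median log2 change of -0.15. Over all 26642 genes tested, 28.3% rose and 31% fell, and the median log2 change was -0.06 (limma, n = 3 pools per group, Benjamini-Hochberg adjustment over all genes). In all, 24 members rose and 4 fell, 80% of those tested against 59.3% of all genes. A rise of at least 2-fold was seen for 18 members, 16 of them ligands, against 14.2% of all genes, and 1 member fell by as much, against 9.34%. The groups did not overlap for 30 of the 35 tested members, against 67.3% of all genes (31.7% in the higher and 35.7% in the lower direction). Because whole organs were measured, fewer cells of a type and less RNA per cell cannot be told apart. Scaled to spike-in control probes, the median of all genes was -0.33 and 18.4% of genes rose and 40.1% fell; 19 members then rose and 5 fell, Ccl5, Ccl9, Ccl25, Ccl27a and Xcl1 no longer passing as higher and Ccr4 passing as lower.

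**Figure D1:**
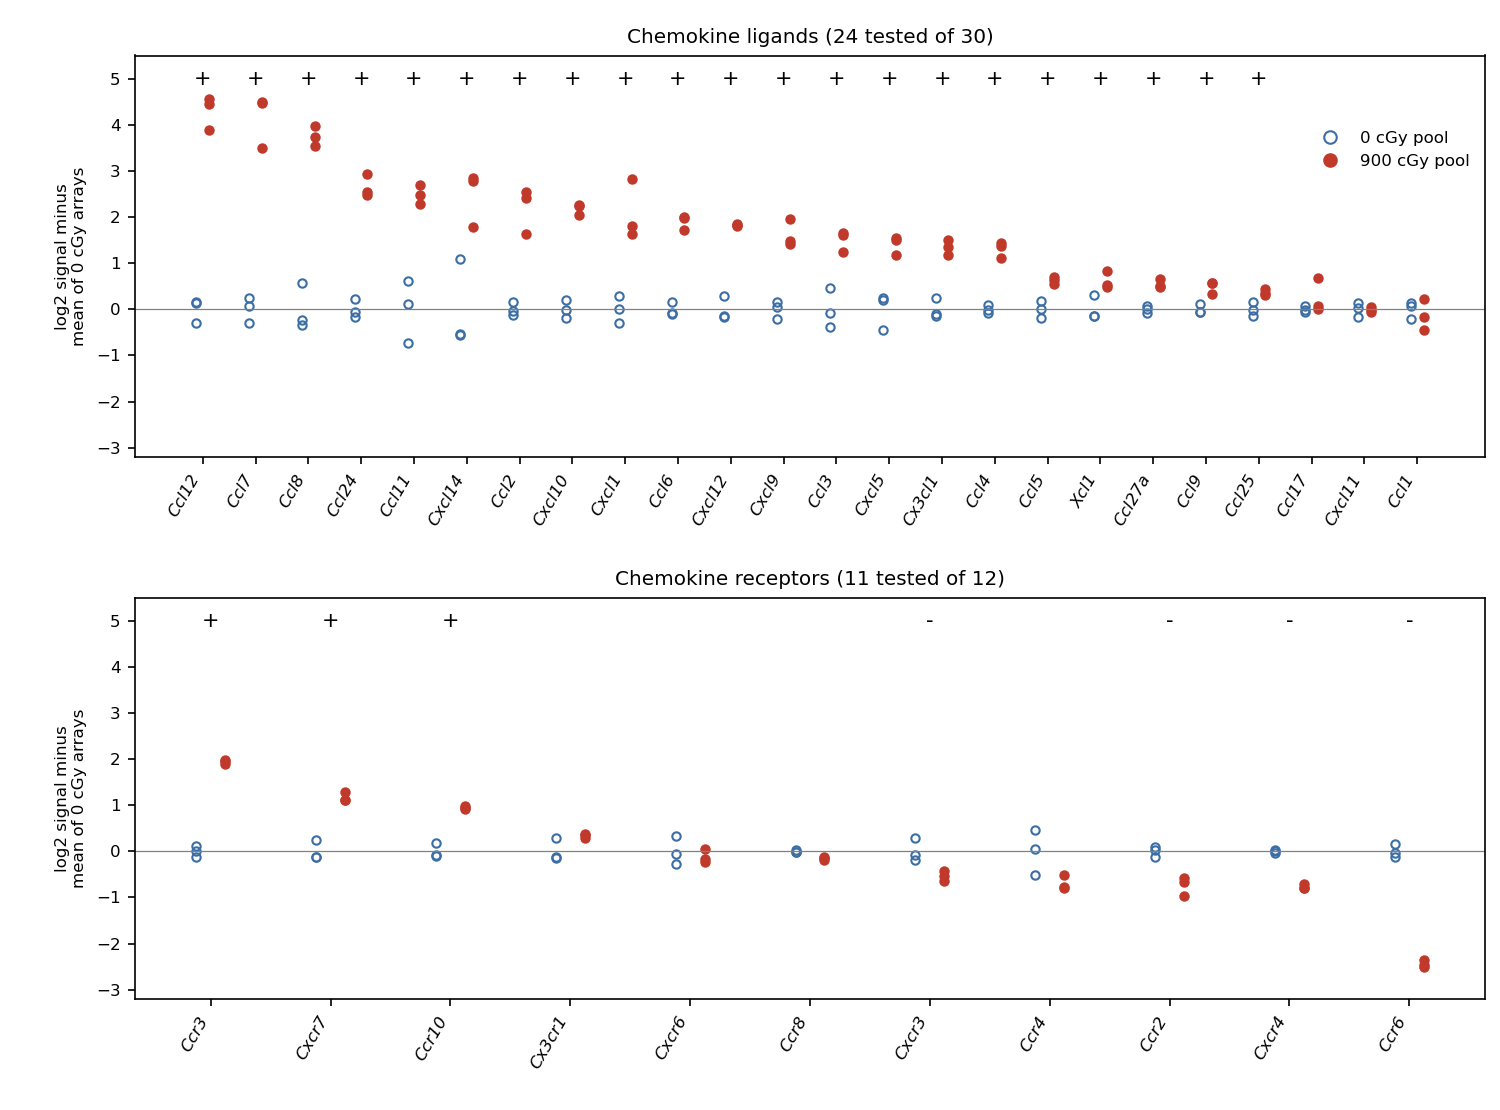
Each point is 1 pool: log2 signal minus the mean of the 3 unirradiated pools, for the 24 tested ligands (upper panel) and 11 tested receptors (lower panel), ordered by change; + marks genes that passed as higher and - as lower at an adjusted p under 0.05. Irradiated pools lie above the unirradiated ones for 21 ligands, while the receptors range from Ccr3 at 1.94 to Ccr6 at -2.44.

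The monocyte chemoattractants that bind CCR2 rose, and their receptor fell. Ccl12, a mouse ligand of CCR2, stood at -4.69, -5.14 and -4.69 on the unirradiated arrays and at -0.40, -0.96 and -0.30 on the irradiated ones. The groups lay far apart, and the change was 19.6-fold (log2 change 4.29 ± 0.21 SE, limma adjusted p = 5.86e-05). Ccl7, a ligand of CCR1, CCR2 and CCR3, stood at -4.10, -4.27 and -4.64 on the unirradiated arrays and at 0.16, -0.85 and 0.13 on the irradiated ones. It rose 17.8-fold (log2 change 4.15 ± 0.30 SE, limma adjusted p = 0.00011), with irradiated replicate 2 below the other irradiated pools. Ccl2, the best known monocyte attractant, stood at -1.92, -1.72 and -2.00 on the unirradiated arrays and at 0.54, -0.25 and 0.67 on the irradiated ones. Its rise of 4.59-fold (log2 change 2.20 ± 0.25 SE, limma adjusted p = 0.000493) had the same low pool. Ccr2, found on monocytes, went from 0.71, 0.63 and 0.48 on the unirradiated to 0.02, -0.36 and -0.05 on the irradiated arrays. All irradiated pools were below all unirradiated ones, a 1.67-fold difference (log2 change -0.74 ± 0.13 SE, limma adjusted p = 0.00303). With normexp background correction the log2 changes of Ccl12 and Ccl7 were 2.99 and 3.15, still past the threshold. Of 8 tested monocyte markers 2 rose, 1 fell and 5 did not pass (median log2 change -0.19). Their summed log2 level was between 7.23 and 7.74 on the unirradiated and between 7.83 and 7.92 on the irradiated arrays. Csf1r, the brightest of the list, went from a mean of 5.99 to 7.07 and weighs most in the irradiated sums. The part of these markers in the lower Ccr2 signal was not tested.

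Ccl8, in the mouse a ligand of CCR8, stood at -2.65, -3.48 and -3.57 on the unirradiated arrays and at 0.74, 0.30 and 0.49 on the irradiated ones. It rose 13.4-fold (log2 change 3.75 ± 0.26 SE, limma adjusted p = 9.95e-05), less than Ccl12 and Ccl7, but with normexp background correction its log2 change of 3.18 was above theirs, and unirradiated replicate 1 was the highest of its group. Ccr8, a receptor of regulatory and type 2 helper T cells, stood at -3.82, -3.81 and -3.76 on the unirradiated arrays and at -3.98, -3.94 and -3.92 on the irradiated ones. The groups did not overlap, but the difference was small and did not pass (log2 change -0.15 ± 0.07 SE, limma adjusted p = 0.126). Its other probe was well above background on 1 of 6 arrays. Ccl1, the other CCR8 ligand, did not pass by its brightest probe (log2 change -0.14 ± 0.19 SE, limma adjusted p = 0.557), whereas a dimmer probe, well above background on all 6 arrays, was higher by a log2 change of 0.71 (adjusted p = 0.0149 in a limma fit over 39683 single probes), so that the 2 probes of Ccl1 disagree.

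To show the upstream sequence of 2 genes with large rises, the 250 bases before the start of Ccl12 (chr11:82101595-82101844, plus strand) and Ccl8 (chr11:82114935-82115184, plus strand) are given 5′ to 3′ from RefSeq, assembly GRCm38.p6. Neither window holds either of the 2 motifs reported for the members' windows, so no base is in capitals.
Ccl12: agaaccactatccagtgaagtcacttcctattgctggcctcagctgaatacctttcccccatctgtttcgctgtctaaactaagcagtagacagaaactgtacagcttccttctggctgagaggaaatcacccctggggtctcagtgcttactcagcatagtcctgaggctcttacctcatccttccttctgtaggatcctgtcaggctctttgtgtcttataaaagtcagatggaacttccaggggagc
Ccl8: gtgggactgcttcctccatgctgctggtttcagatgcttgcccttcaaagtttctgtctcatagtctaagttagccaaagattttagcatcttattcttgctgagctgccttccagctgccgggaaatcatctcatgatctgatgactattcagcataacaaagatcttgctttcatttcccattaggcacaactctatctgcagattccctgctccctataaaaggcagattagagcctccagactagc
The motifs were the core of the interferon-stimulated response element (GAAA, any 2 bases, GAAA) and the NF-kB consensus by its usual name, each on both strands. Of 32851 windows of that length in the table, 2.98% held the first and 3.90% the second. A match of letters is a description of the sequence only, and so is the lack of one.

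The eotaxins and their receptor rose together. Ccl24, called eotaxin-2, stood at -0.55, -0.94 and -0.82 on the unirradiated arrays and at 2.15, 1.71 and 1.78 on the irradiated ones. It rose 6.28-fold (log2 change 2.65 ± 0.16 SE, limma adjusted p = 7.12e-05), and no irradiated pool came near the unirradiated ones. Ccl11, eotaxin-1, stood at -5.54, -4.19 and -4.68 on the unirradiated arrays and at -2.12, -2.53 and -2.34 on the irradiated ones. The rise of 5.57-fold (log2 change 2.48 ± 0.34 SE, limma adjusted p = 0.00104) came with a wide unirradiated group, and the log2 change was 1.51 with normexp background correction. Ccr3, the eotaxin receptor of eosinophils and some other leukocytes, stood at 1.63, 1.38 and 1.50 on the unirradiated arrays and at 3.40, 3.47 and 3.46 on the irradiated ones. Ccr3 had the largest rise of any tested receptor, 3.85-fold (log2 change 1.94 ± 0.09 SE, limma adjusted p = 5.68e-05). Of 6 tested marker genes of eosinophils and basophils, 4 fell, none rose and 2 did not pass. Among those that fell, Prg2, eosinophil major basic protein, had a log2 change of -1.30. Il5ra, the eosinophil growth factor receptor, had -1.74, and Epx, eosinophil peroxidase, -3.17. The 2 that did not pass were Siglecf, at a log2 change of 0.19, and Cpa3, at -0.0082. The summed log2 level of the 7 genes listed was between 3.07 and 3.67 on the unirradiated and between 1.86 and 2.17 on the irradiated arrays, and their part in the result was not tested. Ccl5, a ligand of CCR1 and CCR3 made by T and NK cells, rose by less, 1.55-fold (log2 change 0.63 ± 0.12 SE, limma adjusted p = 0.00396). It did not pass with spike-in scaling, at a log2 change of 0.36.

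Ligands of CCR1 of the macrophage inflammatory protein group rose as well. Ccl6, made by macrophages and neutrophils, stood at 2.53, 2.51 and 2.77 on the unirradiated arrays and at 4.58, 4.32 and 4.60 on the irradiated ones. The change was 3.72-fold (log2 change 1.89 ± 0.12 SE, limma adjusted p = 8.19e-05). Ccl3 stood at -3.06, -2.74 and -2.21 on the unirradiated arrays and at -1.02, -1.43 and -1.05 on the irradiated ones, and Ccl4 at -0.69, -0.75 and -0.59 on the unirradiated arrays and at 0.76, 0.43 and 0.69 on the irradiated ones. Both rose, Ccl3 2.83-fold (log2 change 1.50 ± 0.23 SE, limma adjusted p = 0.00189) and Ccl4 2.47-fold (log2 change 1.30 ± 0.11 SE, limma adjusted p = 0.000187), and in both genes every irradiated pool lay above every unirradiated one. Ccl9 rose by only 1.41-fold (log2 change 0.50 ± 0.11 SE, limma adjusted p = 0.00746) and did not pass with spike-in scaling (log2 change 0.23). Ccr1, the receptor shared by Ccl3, Ccl6, Ccl7 and Ccl9, stayed near background on every array, so no change is given for it.

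The CXCR3 ligands Cxcl9 and Cxcl10, which interferon induces, rose, and CXCR3 itself fell. Cxcl10 stood at 1.90, 1.73 and 2.13 on the unirradiated arrays and at 4.17, 3.97 and 4.17 on the irradiated ones. It rose 4.54-fold (log2 change 2.18 ± 0.13 SE, limma adjusted p = 7.02e-05), and a second probe of the gene gave a log2 change of 2.19. Cxcl9 stood at 0.66, 0.40 and 0.77 on the unirradiated arrays and at 2.57, 2.03 and 2.08 on the irradiated ones. Its rise was 3.06-fold (log2 change 1.61 ± 0.18 SE, limma adjusted p = 0.000423), against a log2 change of 1.37 at the second probe. Cxcr3, the receptor of activated T and NK cells, stood at 1.21, 1.31 and 1.68 on the unirradiated arrays and at 0.97, 0.87 and 0.77 on the irradiated ones. The difference was 1.45-fold lower (log2 change -0.53 ± 0.14 SE, limma adjusted p = 0.0169), with all irradiated pools below all unirradiated ones. This call was lost without irradiated replicate 2 or 3 (adjusted p = 0.0512 and 0.0621) and with the slide row as a block (log2 change -0.43, adjusted p = 0.148). Of 9 listed T cell markers, 8 fell and 1 rose, with a median log2 change of -1.70 and a summed log2 level between 6.10 and 6.62 on the unirradiated and between 4.89 and 4.93 on the irradiated arrays; of 7 NK cell markers, 2 rose, 2 fell and 3 did not pass. Their part in the lower Cxcr3 signal was not tested.

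The upstream window of Cxcl10 is shown because it holds both motifs. The 250 bases before its start (chr5:92348890-92349139, minus strand; RefSeq, GRCm38.p6) are given 5′ to 3′, with the response element core in capitals first, starting at position -213 from the gene's start, and 2 NF-kB matches after it, at -159 and -103.
Cxcl10: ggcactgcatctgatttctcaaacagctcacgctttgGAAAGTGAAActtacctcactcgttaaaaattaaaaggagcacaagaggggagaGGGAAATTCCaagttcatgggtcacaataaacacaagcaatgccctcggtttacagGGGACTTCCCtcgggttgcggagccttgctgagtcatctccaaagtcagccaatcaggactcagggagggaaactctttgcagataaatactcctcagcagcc
Of 33 members with a window in the table, some had several starts, so that there were 37 windows. The response element core was found in 2 of the 37, those of Cxcl10 and Cxcl14, against 2.98% of all windows. Both genes rose, as did 16 of the 33 members with a window. The window of Cxcl9 held neither motif. NF-kB matches were found in 8 of the 37 windows, against 3.90% of all windows. They were those of 4 of the 16 members with a window that rose (Cxcl1, Cxcl10, Ccl9 and Ccr3) and of Ccr6, which fell. The other 3 were those of Cxcl2, Cxcl3 and Ccl20, among the 7 members with a window that were not tested.

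Cxcl11, the remaining CXCR3 ligand, did not pass at either of its probes. Its brightest probe (chromosome 5, 92788567 to 92788626 on mm9) stood at 7.63, 7.75 and 7.45 on the unirradiated arrays and at 7.66, 7.56 and 7.60 on the irradiated ones, with no difference past the threshold (log2 change -0.004 ± 0.10 SE, limma adjusted p = 0.976). Of the members' 55 probes, this one shared the most sequence with other probes of the array. One 20-base stretch of it, printed because it is the part held in common, recurs in probes of 6 other genes.
Cxcl11 probe stretch: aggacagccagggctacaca
Over its whole length the probe shared at least 1 such stretch with probes of 7 other genes, among them Elk1, Glrx2 and Med16, and the 20 bases also stood in 9 of the 32851 RefSeq windows of 300 bases around gene starts. The second Cxcl11 probe shared no stretch of 20 bases, stood at 2.45, 2.68 and 2.97 on the unirradiated arrays and at 2.83, 2.75 and 2.82 on the irradiated ones, and did not pass either (log2 change 0.10, limma adjusted p = 0.559 over single probes). How far each probe follows Cxcl11 transcripts was not tested.

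Neutrophil attractants of the CXCR2 group were dim, and those that could be measured rose. Cxcl5 stood at -1.02, -0.99 and -1.66 on the unirradiated arrays and at 0.32, -0.05 and 0.27 on the irradiated ones. The irradiated pools were all higher, by 2.64-fold (log2 change 1.40 ± 0.21 SE, limma adjusted p = 0.00157). Cxcl1 was well above background on 2 of 3 unirradiated and on all 3 irradiated arrays, and stood at -6.35, -6.03 and -5.75 on the unirradiated arrays and at -4.23, -4.41 and -3.22 on the irradiated ones. It rose 4.25-fold (log2 change 2.09 ± 0.33 SE, limma adjusted p = 0.00205), but its log2 change was 0.86 with normexp background correction, still past the threshold. Cxcl2 stayed near background on every array, at -8.15, -8.12 and -8.58 on the unirradiated arrays and at -6.50, -6.60 and -5.96 on the irradiated ones, so that no fold is given although the groups did not overlap; tested without the background filter it passed as higher (adjusted p = 0.0011, limma). Cxcl3 and the lung chemokine Cxcl15 were near background throughout as well. Their receptor Cxcr2, the main chemokine receptor of mature neutrophils and not among the 42 members, stood at 0.42, 0.20 and -0.0015 on the unirradiated arrays and at 2.22, 1.95 and 2.49 on the irradiated ones. It rose 4.04-fold (log2 change 2.01 ± 0.17 SE, limma adjusted p = 0.000181). Of 9 listed neutrophil markers none rose, 1 fell and 8 did not pass (median log2 change -0.19). Their changes ranged from -1.26 for Ngp to 0.68 for Retnlg. The SD between unirradiated arrays was 1.06 for Ngp and 0.98 for Mmp8, but 0.05 for Csf3r. With such spread, a missed threshold does not show an unchanged level. The summed log2 level of these markers on the irradiated arrays, between 9.25 and 9.41, lay within the unirradiated range. Their part in the higher Cxcr2 signal was not tested.

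The windows of the neighbours Cxcl1 (chr5:90890995-90891244, plus strand) and Cxcl2 (chr5:90903649-90903898, plus strand) are printed, from RefSeq (GRCm38.p6) and 5′ to 3′, because the same 11 letters stand in capitals in both. They hold 2 NF-kB matches that overlap by all but 1 base, starting at -71 and -70 in Cxcl1 and at -97 and -96 in Cxcl2.
Cxcl1: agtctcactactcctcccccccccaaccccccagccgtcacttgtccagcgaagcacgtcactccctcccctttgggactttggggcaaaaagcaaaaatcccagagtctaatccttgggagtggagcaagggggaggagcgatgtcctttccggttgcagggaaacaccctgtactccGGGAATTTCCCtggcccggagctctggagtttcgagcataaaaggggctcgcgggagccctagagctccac
Cxcl2: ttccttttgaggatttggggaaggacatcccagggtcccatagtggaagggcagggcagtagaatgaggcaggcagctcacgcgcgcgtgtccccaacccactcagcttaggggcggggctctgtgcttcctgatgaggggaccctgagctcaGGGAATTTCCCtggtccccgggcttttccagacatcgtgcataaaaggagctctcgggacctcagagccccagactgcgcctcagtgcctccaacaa
The window of Cxcl3 holds the same overlapping pair, at -73 and -72. Among the 3 genes only Cxcl1 was above background on enough arrays to be tested.

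Stromal and endothelial chemokines rose, with receptors that went in different directions. Cxcl12, made by reticular stroma and the ligand of CXCR4 and CXCR7, stood at 4.95, 4.98 and 5.41 on the unirradiated arrays and at 6.96, 6.93 and 6.94 on the irradiated ones. The irradiated pools were nearly equal, and the rise was 3.55-fold (log2 change 1.83 ± 0.14 SE, limma adjusted p = 0.000122); a second probe gave a log2 change of 2.01. Cxcr4, which holds lymphocytes and progenitors in CXCL12-rich sites, stood at 1.61, 1.66 and 1.68 on the unirradiated arrays and at 0.86, 0.86 and 0.95 on the irradiated ones. It fell 1.69-fold (log2 change -0.76 ± 0.08 SE, limma adjusted p = 0.000325), with little spread in either group. Cxcr7, the atypical receptor that removes CXCL12 and CXCL11, stood at 1.56, 1.56 and 1.93 on the unirradiated arrays and at 2.80, 2.96 and 2.80 on the irradiated ones. It rose 2.26-fold (log2 change 1.17 ± 0.13 SE, limma adjusted p = 0.000443), so that the 2 receptors of 1 ligand moved in opposite directions. Cx3cl1, fractalkine, a membrane-bound chemokine of endothelium and stroma, stood at -1.73, -1.68 and -1.34 on the unirradiated arrays and at -0.23, -0.40 and -0.08 on the irradiated ones. It rose 2.54-fold (log2 change 1.35 ± 0.14 SE, limma adjusted p = 0.000362). Its receptor Cx3cr1, found on monocytes and macrophages, stood at 2.28, 2.30 and 2.72 on the unirradiated arrays and at 2.81, 2.73 and 2.78 on the irradiated ones. It did not pass (log2 change 0.34 ± 0.13 SE, limma adjusted p = 0.0702), and its second probe went the other way, at a log2 change of -0.38, not passing either. Without unirradiated replicate 3, Cx3cr1 passed as higher, at a log2 change of 0.48. Cxcl14, a chemokine of epithelia and stroma whose receptor is not settled, stood at -3.70, -5.33 and -5.34 on the unirradiated arrays and at -1.94, -3.00 and -2.01 on the irradiated ones. It rose 5.55-fold (log2 change 2.47 ± 0.52 SE, limma adjusted p = 0.00639), or by a log2 change of 1.49 with normexp background correction, and it had the widest unirradiated group of the tested members, with replicate 1 well above the other pools.

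On the same arrays, marker genes of several cell types that can make these ligands were higher, and so were those of fat and pancreas. All 10 macrophage markers rose (median log2 change 1.88), with a summed log2 level between 7.70 and 7.80 without and between 9.61 and 9.71 with irradiation; the brightest were Vcam1 at 1.43 and Marco at 1.99. All 7 stroma markers rose (median 1.67), from a summed log2 level between 5.06 and 5.44 to one between 6.78 and 6.83, among them Dcn at 2.01 and Col3a1 at 1.31. Of 7 endothelium markers 5 rose and 2 did not pass (median 1.11; summed log2 level between 5.69 and 5.72, and between 6.71 and 6.80). All 6 fat markers rose (median 3.77), with sums between 2.29 and 3.10 and between 6.45 and 6.56. The exocrine pancreas list had 7 of 8 genes higher (median 6.88); its sum was 1.04, 7.26 and 4.87 on unirradiated replicates 1 to 3 and between 10.1 and 10.4 on the irradiated arrays. The part of the macrophage, stroma, endothelium, fat and pancreas lists in the rise of the ligands was not tested.

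**Figure D2:**
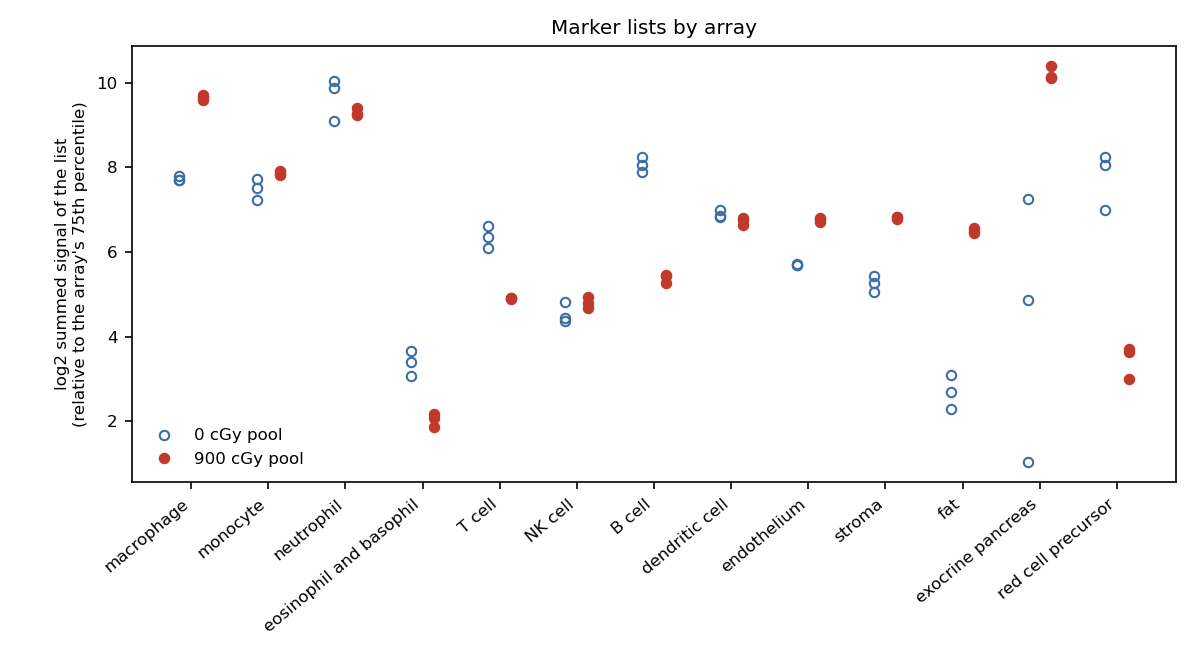
Each point is 1 pool: log2 of the summed signals of a marker list, each divided by the 75th percentile of its array, at 0 cGy (open) and 900 cGy (filled). Macrophage, endothelium, stroma, fat and pancreas sums are higher in all 3 irradiated pools, B cell, T cell and red cell precursor sums are lower, and the unirradiated pools spread from 1.04 to 7.26 in the pancreas list.

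Among receptors of lymphocytes, Ccr6 stood out by size. Ccr6, the CCL20 receptor of B cells and some T cells, stood at 3.59, 3.68 and 3.89 on the unirradiated arrays and at 1.36, 1.25 and 1.22 on the irradiated ones. It fell 5.44-fold (log2 change -2.44 ± 0.11 SE, limma adjusted p = 5.42e-05), the only member that fell by at least 2-fold. All 7 listed B cell markers fell too (median log2 change -2.82), among them Cd79b at -2.58 and Ms4a1 at -2.64, with a summed log2 level between 7.90 and 8.25 on the unirradiated and between 5.28 and 5.45 on the irradiated arrays; their part in the lower Ccr6 signal was not tested. Ccl20, its ligand, was near background throughout. Ccr4, a receptor of helper and regulatory T cells, missed the threshold (log2 change -0.69 ± 0.25 SE, limma adjusted p = 0.0504), and passed as lower with spike-in scaling at -0.96 and without unirradiated replicate 2 at -0.95. Of its ligands, Ccl17 did not pass (log2 change 0.25 ± 0.19 SE, limma adjusted p = 0.285), and Ccl22 was well above background on 1 of 6 arrays and was not tested. Cxcr6, of T and NK cells, did not pass (log2 change -0.12 ± 0.17 SE, limma adjusted p = 0.588), while its ligand Cxcl16, which is outside the 42 members and made by macrophages and endothelium, rose 2.92-fold (log2 change 1.55 ± 0.09 SE, limma adjusted p = 7.31e-05).

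Small rises were seen in ligands of epithelial and lymphoid traffic. Ccl27a, a skin chemokine, was higher by a log2 change of 0.55 ± 0.09 SE at its brightest probe. A second probe, at 0.60, overlaps the first (starts at 41716357 and 41716345 on chromosome 4, mm9). The third probe, at another site, had a log2 change of -0.15 and did not pass. Ccr10, the receptor of Ccl27a, found on plasma cells and skin-homing T cells, stood at -2.76, -2.79 and -2.50 on the unirradiated arrays and at -1.69, -1.73 and -1.76 on the irradiated ones. The groups were well separated, with a rise of 1.94-fold (log2 change 0.95 ± 0.10 SE, limma adjusted p = 0.000411). Ccl28, the mucosal ligand of Ccr10, was near background throughout. Xcl1, lymphotactin, made by NK and CD8 T cells, was higher by a log2 change of 0.61 ± 0.16 SE (limma adjusted p = 0.0179). The call was lost without unirradiated replicate 1 or 2 or irradiated replicate 1 and with spike-in scaling. Its receptor Xcr1, of cross-presenting dendritic cells and outside the members, had a log2 change of -1.10 ± 0.13 SE (limma adjusted p = 0.000593). Of 7 dendritic cell markers, Xcr1 among them, 4 fell and 3 did not pass, with a summed log2 level between 6.82 and 6.98 on the unirradiated and between 6.64 and 6.81 on the irradiated arrays; their part was not tested. Ccl25, a thymic and gut chemokine, passed by its brightest probe (log2 change 0.37 ± 0.10 SE, limma adjusted p = 0.0224), but another probe had a log2 change of -0.81 (adjusted p = 0.00107 over single probes), and the mean over its probes turned to -0.13. Its call was lost without any 1 of the 3 irradiated pools, so that its direction is not settled, although it is counted above by its brightest probe. Its receptor Ccr9, of plasmacytoid dendritic cells and gut-homing T cells and outside the members, had a log2 change of -1.86 ± 0.19 SE (limma adjusted p = 0.000315).

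Set side by side, ligand and receptor changes went together in some pairs and apart in others. Of 34 known ligand and receptor pairs, 23 had both partners tested. In 8 of these both rose, namely Ccr3 with Ccl5, Ccl7, Ccl11 and Ccl24, Cxcr2 with Cxcl1 and Cxcl5, Ccr10 with Ccl27a, and Cxcr7 with Cxcl12. In 8 the ligand rose and the receptor fell, namely Ccr2 with Ccl2, Ccl7 and Ccl12, Cxcr3 with Cxcl9 and Cxcl10, Cxcr4 with Cxcl12, Ccr9 with Ccl25 and Xcr1 with Xcl1. The calls of Ccl25, Xcl1 and Cxcr3 did not hold when 1 array was left out. Without the pairs of these genes, 18 pairs remained, with both higher in 8 and the ligand higher and the receptor lower in 4. These 18 still hold Ccl5 and Ccl27a, whose calls were lost with spike-in scaling and within slide row 1 alone. They also hold Ccr2, whose call was lost within slide row 1 alone. Pairs share genes, so these counts are not independent of each other.

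**Figure D3:**
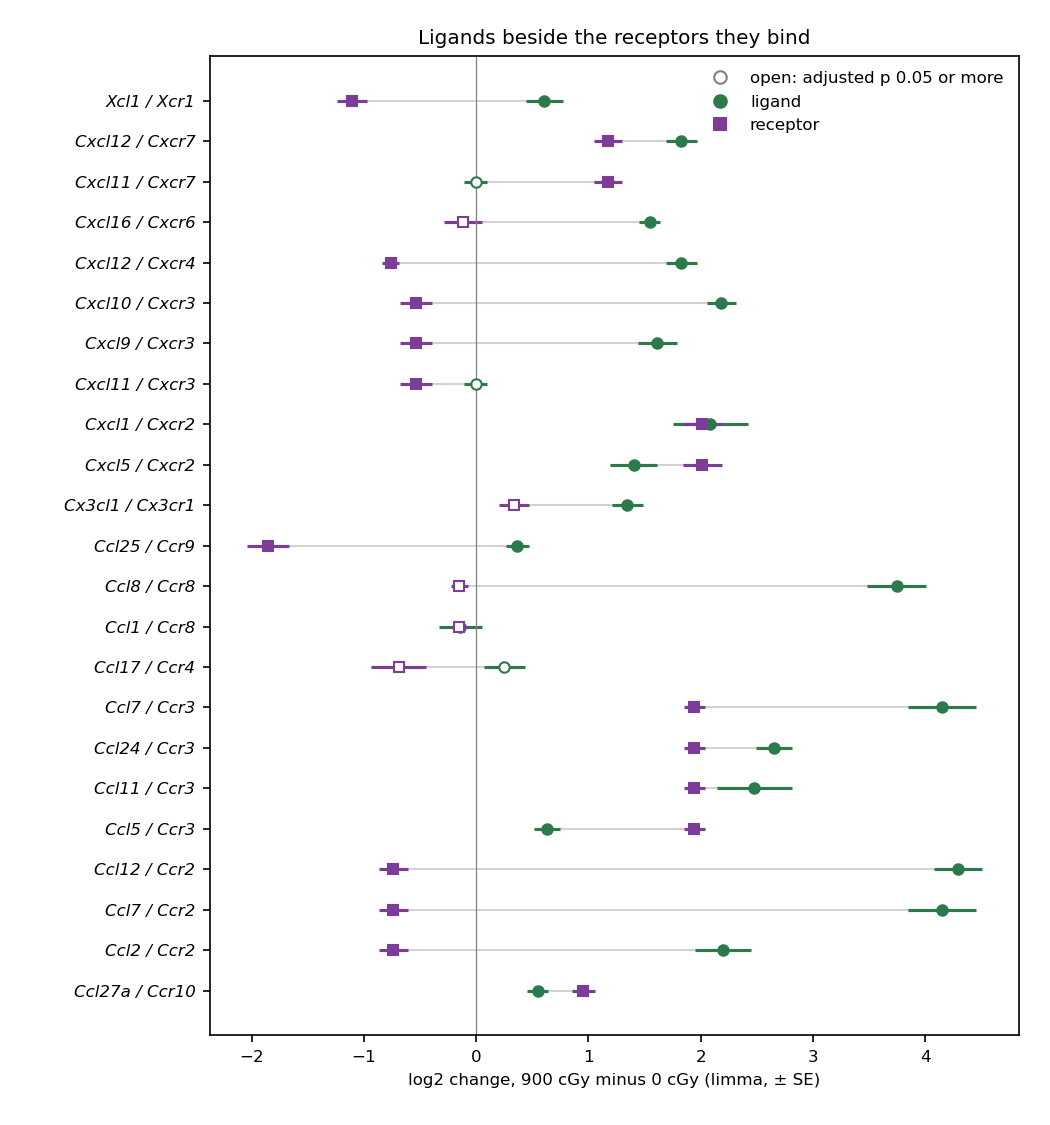
Each row is 1 ligand and receptor pair: log2 change with its SE for the ligand (circle) and the receptor (square), open where the adjusted p was 0.05 or more. The distance is widest for Ccl12 at 4.29 against Ccr2 at -0.74, while for Ccl7 and Ccr3 both values lie above 0, at 4.15 and 1.94.

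Neighbouring genes of the same chromosomal group changed by unequal amounts. Chemokine genes arose by duplication and lie in clusters, and members whose probes lay within 300 kb of the next one (mm9 positions in the files) were taken as 1 group. On chromosome 11 between 81850650 and 81990510, a span of 140 kb, lie Ccl2, Ccl7, Ccl11, Ccl12, Ccl8 and Ccl1, of which all but Ccl1 rose. From 83339296 to 83478111 on the same chromosome lie Ccl5, Ccl9, Ccl6, Ccl3 and Ccl4, all of which rose, the log2 changes ranging from 0.50 to 1.89. On chromosome 5, 2 of 5 genes of the Cxcl5 to Cxcl2 group were bright enough to test and both rose, and in the 36.4 kb from Cxcl9 to Cxcl11 the first 2 genes rose. On chromosome 8, Cx3cl1 rose between Ccl22, which was not tested, and Ccl17, which did not pass. Of the receptor genes on chromosome 9 within 302 kb, Ccr3 rose and Ccr2 fell although their probes are neighbours in the group.

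**Figure D4:**
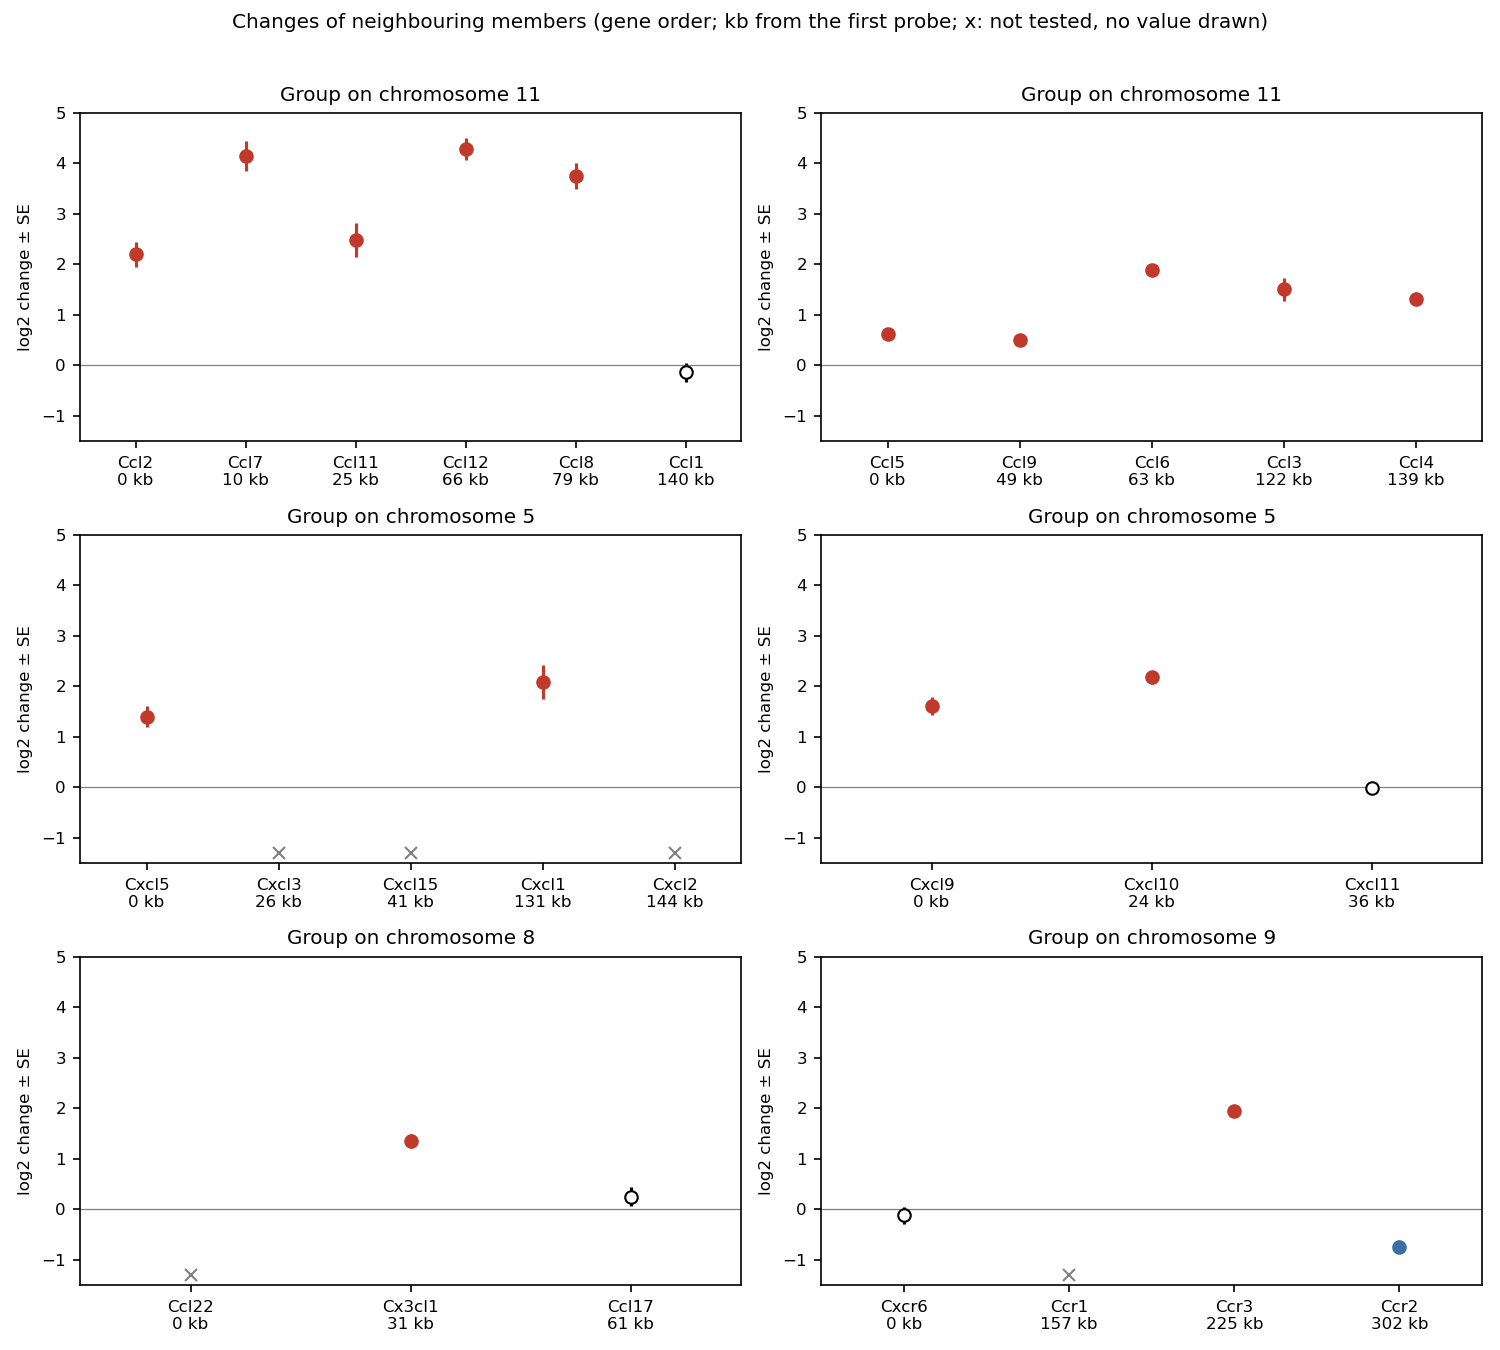
Panels show groups of at least 3 neighbouring members in gene order, with kb from the first probe under each name and the log2 change (900 cGy minus 0 cGy) with its SE; filled red points rose, blue fell, open points did not pass and crosses were not tested, placed at the bottom with no value. The first group on chromosome 11 spans changes from -0.14 for Ccl1 to 4.29 for Ccl12.

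Among the irradiated pools, the members that rose tended to be lowest in the same one. Irradiated replicate 2 was the lowest of the 3 irradiated pools in 19 of the 24 members that rose, or 79.2%, against 29.4% of the 7536 genes that rose over the whole array and had a value on every irradiated array. Replicate 1 was the highest in 14 of the 24, or 58.3%, against 31.2% of those genes. Members of a pool share its RNA and its mice, so the 24 genes are not independent of each other. Without irradiated replicate 2, 23 members rose and 3 fell, while 24.5% of all genes rose and 25.6% fell.

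Other genes of the chemokine system, listed apart from the members, moved both ways; the shares to read their counts against are again 28.3% of all genes higher and 31% lower, or 18.4% higher with spike-in scaling. Of 18 further ligands, receptors and atypical receptors 17 had a probe and were tested, and 7 rose, 5 fell and 5 did not pass (median log2 change 0.03). The largest rises were of Cxcr1, a neutrophil receptor, at 3.15, Cmklr1, the chemerin receptor of macrophages, at 2.36, and Ackr4, a scavenger of CCL19, CCL21 and CCL25, at 2.06. Cmklr1 was near background without irradiation, at a mean of -5.81, and well above it on 2 of 3 unirradiated arrays. The largest falls were of Cxcr5, the follicular receptor of B cells, at -3.17, Ackr1, the atypical receptor of red cells and venules, at -2.15, and Ccr9. Of 28 genes that act behind chemokine receptors, 11 rose, 12 fell and 5 did not pass (median 0.03); with spike-in scaling 5 rose. Gnai1, an inhibitory G protein subunit, rose 4.0-fold, Rgs1, which ends G protein signals, 2.92-fold, and Plcb3, a phospholipase, 2.19-fold. Log2 changes of the 3 largest falls were -1.72 for Grk6, a receptor kinase, -1.57 for Rgs14 and -1.37 for Plcb2. Of 9 genes of chemokine cleavage and presentation 5 rose, 1 fell and 3 did not pass (median 0.44), but 1 rose with spike-in scaling. Among them the proteoglycan cores Sdc1 and Sdc4 and the heparan sulfate polymerase Ext1 rose by 1.11, 0.55 and 0.51, and Dpp4, a protease that trims chemokines, had a change of -0.93.

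The arrays were alike in quality. Between 39036 and 41267 of 55681 probes were well above background, no spot was saturated, and pairs of arrays of a group correlated at r from 0.988 to 0.998 over genes. All 6 lay on 1 slide and were scanned together, with the 3 unirradiated arrays and irradiated replicate 1 in slide row 1 and irradiated replicates 2 and 3 in row 2. Within row 1 alone 16.8% of all genes rose and 14.8% fell, and of the members 20 rose and 2 fell, the lone irradiated array being assumed to vary like the others; Ccl5, Ccl9, Ccl25, Ccl27a, Xcl1, Ccr2 and Cxcr3 then missed the threshold and Ccl17 passed as higher. Of the marker lists for macrophages, T cells and B cells, the main cells of a spleen, none held a gene that stayed near background throughout. The number of arrays limits the precision.

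**Figure D5:**
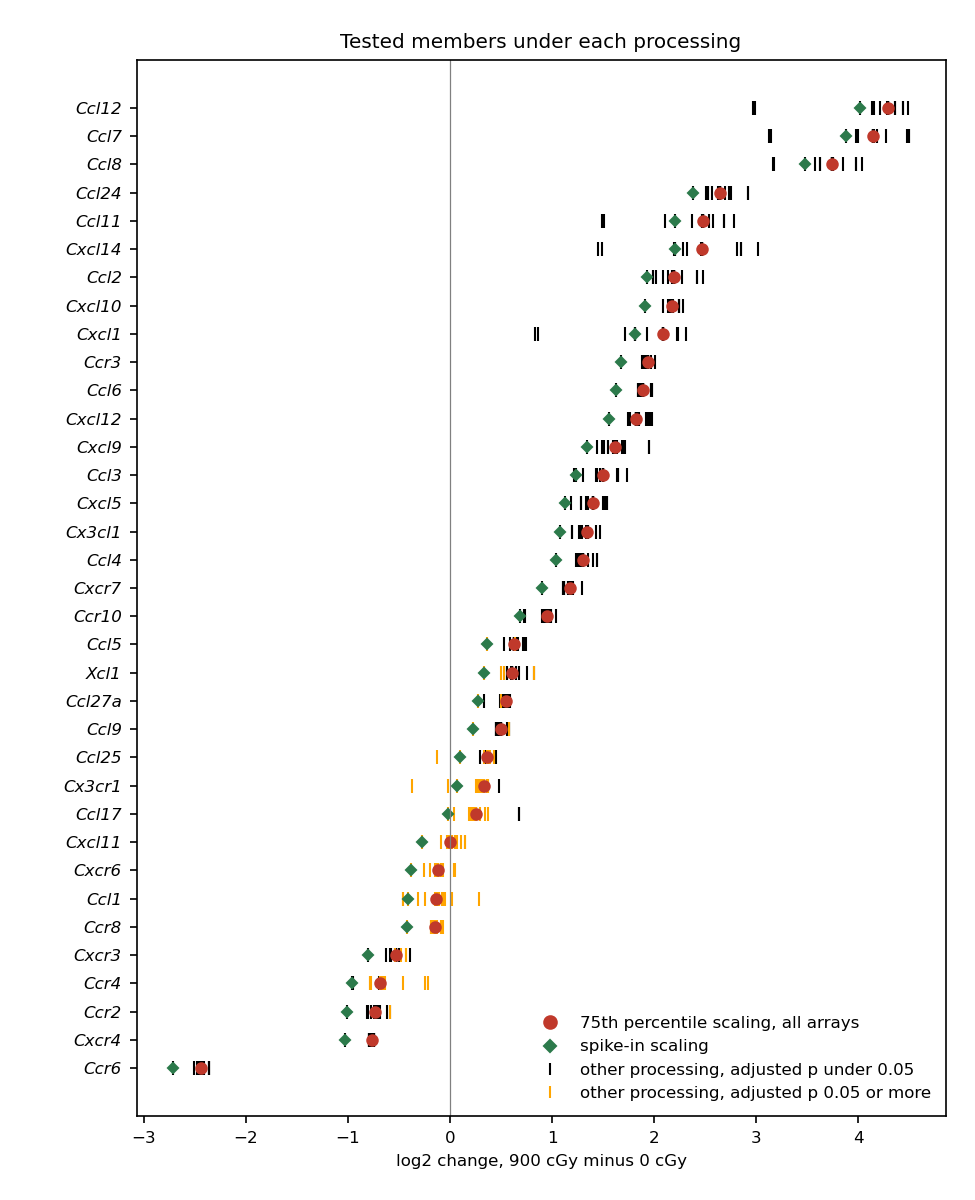
Each row is 1 tested member: log2 change as reported (red), with spike-in scaling (green) and under the other processing alternatives (ticks, black where the adjusted p was under 0.05 and orange otherwise). The rises of at least 0.95 and the falls of Ccr6 and Cxcr4 keep their sign and their side of the threshold, while Ccl25, Cx3cr1, Ccl17, Cxcl11, Cxcr6 and Ccl1 reach both sides of 0.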

How the data were processed

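RNA of 6 pools of mouse spleen was hybridised to Agilent one-colour (Cy3) arrays. Agilent Feature Extraction 10.5.1.1 gave the deposited intensity values, per the submitters' processing notes: a processed intensity, corrected for background and spatial trend, with surrogate values in weak spots per the file headers, and the mean spot and median background intensity. The authors' deposited log2 value table, set against the scanner values, was scaled and centred on each probe's median (r from 0.99996 to 0.99998), and served as an alternative; its column medians were 0.047, -0.0059 and -0.047 (0 cGy) and -0.025, 0.018 and -0.0082 (900 cGy). Probe positions are on mm9, per the file headers.

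Log2 processed intensity minus the log2 75th percentile (between 1114 and 1403) was averaged over spots of a probe, without the 3671 control spots and between 91 and 146 outlier spots per array. Probes other than the members' were named through RefSeq (GRCm38.p6) by accession for 27180, symbol for 3580 and synonym for 565, and 24301 kept the file's name. The brightest probe stood for a gene. Groups were compared in R 4.3.3 with limma 3.58.1 (lmFit, eBayes, two-sided, Benjamini-Hochberg). The fit was tested on simulated data. The genes named in full are those past the threshold by at least 2-fold and the receptors of such ligands. Of each further list up to 3 in each direction are named. Of marker lists the 2 brightest are named, with Epx, Siglecf and Cpa3 added after their values were seen. Members and lists were chosen with earlier results of these data known. Listed genes with no matched probe name were Ccl21a, Ly6c2 and Hbb-b1. No member had a fold given as a bound. A further motif was searched and is not reported here.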

Additional observations from a re-analysis of the deposited data

How the results depend on the processing

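The 19 alternatives kept the count of members that rose between 19 and 25 (reported: 24). The lowest count came with spike-in scaling, where 18.4% of all genes rose. Leaving out 1 pool at a time gave 22 to 25 members higher and 3 to 5 lower. In these fits between 24.2% and 29.2% of all genes rose and between 25.6% and 33.5% fell. The member calls that changed were Xcl1, Ccl25 and Cxcr3 (lost) and Ccr4 and Cx3cr1 (gained). Slide row 1 alone gave 2 members lower in place of 4 (Ccr2 and Cxcr3 lost), from fewer arrays. The mean over a gene's probes reversed Ccl25, to -0.13. With normexp background correction the log2 changes of Ccl7, Ccl11, Ccl12, Cxcl1 and Cxcl14 moved to 3.15, 1.51, 2.99, 0.86 and 1.49. For the receptor signalling list, higher and lower counts were 7 and 7 with the slide row as a block and 5 and 5 with row 1 alone, and 5 were higher with spike-in scaling; row 1 alone gave 3 lower for the further chemokine genes. For the cleavage and presentation list the higher count was 1 with spike-in scaling or row 1 alone (0 lower) and 3 with no background filter, with the replicate block or with the slide row block; leaving out 1 pool gave between 3 and 5 higher. Deviations of same-numbered arrays correlated at 0.07, 0.12 and -0.0022, and those of differently numbered arrays at between -0.14 and 0.07. These correlations cannot settle whether the replicate numbers pair the arrays. With the replicate block 23 members rose and 5 fell, Ccl25 being lost and Ccr4 gained, while 26.8% of all genes rose and 28.4% fell. Ccl17 passed as higher with the slide row as a block; Ccr4 passed as lower in the deposited value table, with the stricter filter and with the mean over probes, and Cx3cr1 as higher with trended, robust variances. Leaving out probes that share a 20-base stretch was chosen after seeing the data and changed no member's call. Signal near background limits Cxcl1, Cxcl14 and Ccl11, and 7 members could not be tested. Dim signal also limits the folds of Ccl12 and Ccl7, whose unirradiated means were -4.84 and -4.34, beside -4.80 for Ccl11.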
